A study of Mus musculus with 9 samples.

Results

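Claudins, zonula occludens and other tight junction genes, numbered cadherins and desmosome genes were selected by gene name from the count tables of mouse bile duct organoid cells. The name rule included Cldn, Cdh, Tjp1, Tjp3, Ocln, Cgn, F11r, Jam2, Jam3, Esam, Dsp, Dsg, Dsc and Pkp1 to Pkp4, and used no measured value. It found 60 of 32137 genes: 20 claudins, 9 other tight junction genes, 23 cadherins and 8 desmosome genes.

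The organoids came from 1 male mouse of mixed background, genotype Axin2CreERT2+/-; R26-LSL-tdTom+/-, in which tamoxifen-activated Cre is made wherever the Wnt target gene Axin2 is active and switches on the tdTomato reporter. All cultures were expanded for 2 to 4 days, differentiated for 11 days, and held for the final 24 h in 3 uM dexamethasone and 500 nM 4-hydroxytamoxifen. R-spondin 1 (Rspo1), a secreted enhancer of Wnt signalling, was either absent or added at 100 ng/ml in that period, after which cells were dissociated and sorted on tdTomato. The 3 groups, each of 3 libraries, were tdTomato-negative cells without Rspo1 (untreated), tdTomato-negative cells with Rspo1 (Rspo1-negative) and tdTomato-positive cells with Rspo1 (Rspo1-positive). Each group had 1 library from passages 5, 6 and 10, and values below are given in that order. There was no group of untreated tdTomato-positive cells. Rspo1 and the gate therefore cannot be told apart when Rspo1-positive cells are set against untreated ones. Rspo1-negative and untreated cells are both what was left without tdTomato-positive cells, so Rspo1 and selection by the sort cannot be told apart there. The 9 libraries are sorted fractions of repeated cultures of a single animal, and p-values measure only the spread between such libraries.

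Tight junctions seal the space between neighbouring epithelial cells. Claudins and occludin span the membrane there and form the barrier and its pores, while the zonula occludens proteins and cingulin bind them to actin from inside. Classical cadherins such as E-cadherin hold cells together at adherens junctions through catenins. Desmosomal cadherins are tied to keratin filaments by plakophilins and desmoplakin. In bile ducts these junctions keep bile apart from the liver tissue.

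Library totals ranged from 23423979 to 37351448 counts. Axin2 had 0.307, 0.401 and 1.37 FPKM (fragments per kilobase of transcript and per unit of library size, on the authors' scale) in untreated cells. In Rspo1-negative cells it had 10.8, 22.8 and 29.0, and in Rspo1-positive cells 17.6, 20.8 and 35.2. Both Rspo1 groups were thus above untreated cells, the tdTomato-negative gate included. The labelled tissue was checked on 8 biliary markers, all of which had a mean of at least 1 FPKM. Krt19, a keratin of duct cells, ran from 842 to 2164 FPKM and Epcam from 259 to 337. The 6 measured mesenchymal markers were each under 0.1 FPKM on average. Of 8 immune markers, 5 were measured and 3 of these were under 0.1 FPKM on average. The other 2 had a mean of at least 1, with Csf1r the highest at 9.46 FPKM. In bulk RNA of this kind, fewer cells expressing a gene and less RNA per cell cannot be told apart.

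Of the 60 genes, 36 had enough counts to be tested among 17011 genes: 10 claudins, 9 other tight junction genes, 10 cadherins and 7 desmosome genes. The 24 others had at most 14 counts in any library, and Cdh5, Cldn11 and Cldn24 had 0 in all 9. Of the tested genes, 29 had a mean of at least 1 FPKM, 21 of at least 10 and 6 of at least 100. The expressed set was narrow among claudins and cadherins, with 8 of 20 and 6 of 23 at a mean of at least 1 FPKM. Of the other tight junction genes 8 of 9 reached that level, and of the desmosome genes 7 of 8. Among claudins, Cldn2, Cldn3, Cldn7 and Cldn4 exceeded 100 FPKM and Cldn12, Cldn8, Cldn23 and Cldn6 lay between 1.12 and 13.8. Among cadherins, Cdh1 alone exceeded 100 FPKM on average.

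**Figure D1:**
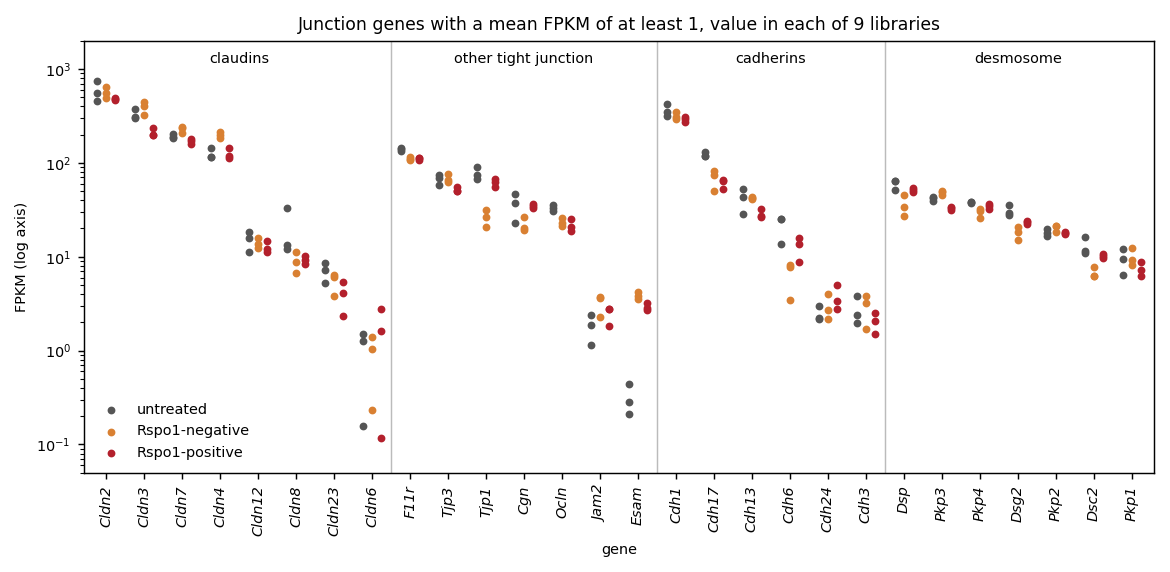
FPKM (log axis) of 28 of the 29 junction genes with a mean of at least 1 FPKM, ordered by level within each class; each point is 1 of 9 libraries, coloured by group. Cldn2 and Cdh1 lead their classes, Esam is the gene whose untreated libraries lie far below both Rspo1 groups, and the Tjp1 libraries of Rspo1-negative cells lie below all others of that gene.

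Promoters of 4 tight junction genes that changed in at least 1 comparison are shown because they include the neighbouring claudin genes Cldn3 and Cldn4 on chromosome 5, whose values in Rspo1-negative cells are set side by side further on. Each is the 250 bases before a RefSeq transcript start (build GRCm38.p6), written in the direction of transcription. Capitals mark matches, on either strand, to the E-box CAGGTG, the TCF/LEF motif CTTTGAT, the GC box GGGCGG, the AP-1 motif TGANTCA and the TATA box TATAAA. No 2 matches overlap here.
Cldn3, chr5:134985964-134986213, plus strand: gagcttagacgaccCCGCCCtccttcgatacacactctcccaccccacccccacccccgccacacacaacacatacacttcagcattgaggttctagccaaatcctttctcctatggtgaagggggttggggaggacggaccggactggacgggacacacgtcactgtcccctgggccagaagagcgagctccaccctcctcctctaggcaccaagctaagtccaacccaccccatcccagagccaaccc
Cldn4, chr5:134946935-134947184, minus strand: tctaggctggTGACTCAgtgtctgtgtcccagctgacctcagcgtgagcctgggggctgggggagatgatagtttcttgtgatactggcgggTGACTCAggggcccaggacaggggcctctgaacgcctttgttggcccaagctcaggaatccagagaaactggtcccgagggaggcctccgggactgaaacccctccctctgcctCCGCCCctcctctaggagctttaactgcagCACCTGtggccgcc
Ocln, chr13:100552719-100552968, minus strand: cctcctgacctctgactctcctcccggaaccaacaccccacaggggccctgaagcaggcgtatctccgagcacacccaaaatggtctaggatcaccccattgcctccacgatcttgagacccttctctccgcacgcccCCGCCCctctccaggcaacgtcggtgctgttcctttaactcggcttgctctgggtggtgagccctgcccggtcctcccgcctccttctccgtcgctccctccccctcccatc
Tjp1, chr7:65371245-65371494, minus strand: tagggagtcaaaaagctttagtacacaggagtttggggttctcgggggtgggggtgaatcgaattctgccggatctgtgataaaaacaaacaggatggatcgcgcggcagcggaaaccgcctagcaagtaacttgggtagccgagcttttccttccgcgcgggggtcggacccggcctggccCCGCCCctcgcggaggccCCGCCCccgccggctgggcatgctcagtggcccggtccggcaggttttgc

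The Cldn4 window held 2 AP-1 matches, at -240 to -234 and -158 to -152 from the transcript start, with 1 GC box at -44 to -39 and 1 E-box at -14 to -9. The Cldn3 window held 1 GC box at -236 to -231, Ocln 1 at -112 to -107, and Tjp1 2 at -68 to -63 and -50 to -45. The Tjp1 window precedes an internal RefSeq start, 156537 bases from the outermost start of the gene in GENCODE. Of the 60 genes, 36 had a RefSeq window, some more than 1, with 48 windows in all. Of these 48 windows, 22 held a GC box, 11 an E-box, 3 an AP-1 match, 1 a TCF/LEF match and 1 a TATA box. Over 32851 windows of the same length, 32.7% held a GC box, 17.2% an E-box, 6.75% an AP-1 match, 3.21% a TCF/LEF match and 12.4% a TATA box. These matches are a description of letters and no measure of binding.

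Relative to untreated cells, Rspo1-positive cells had more Esam RNA and less RNA of 6 other junction genes: Cdh17, Cdh6, Cldn23, Cldn8, Cldn3 and Ocln. These 7 of 36 genes passed an adjusted p of 0.05 (edgeR's quasi-likelihood test with passage as a block), or 19.4%, where 13.2% of all genes tested passed. In 1 direction, 6.44% of all genes were higher and 6.77% lower. Values of the 2 groups did not overlap for 17 of 36 genes, against 23.2% of all genes. The median log2 fold change of the 36 genes was -0.28, and that of all genes -0.00. By class, 2 of 10 cadherins, 3 of 10 claudins and 1 of 9 other tight junction genes were lower. The 7 desmosome genes had adjusted p-values of 0.0559 or more with edgeR.

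Esam, an immunoglobulin-family adhesion molecule known from endothelial tight junctions (ENSMUSG00000001946, chromosome 9, 37528078 to 37538319), rose most. It had 0.212, 0.282 and 0.440 FPKM in untreated cells, from 13, 16 and 29 counts. Rspo1-positive cells had 2.81, 3.20 and 2.69 FPKM, and every one of these exceeded every untreated library. The log2 fold change was 3.22 (SE 0.25, edgeR adjusted p = 1.34e-05), a 9.31-fold difference. Endothelial markers were looked at beside it. Of 8 on the list, 6 were measured and 4 had a mean under 0.1 FPKM, among them Pecam1 and Tek. Erg had 1 count in 1 library and 0 in the other 8, and Cdh5, the endothelial cadherin, was at 0 in all. Egfl7 was the only one with a mean of at least 1 FPKM, at 5.39, 6.57 and 4.70 FPKM in untreated and 6.502, 6.55 and 7.03 in Rspo1-positive cells. The summed level of the list ran from 5.04 to 6.60 FPKM in untreated and from 6.68 to 7.26 in Rspo1-positive cells.

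Cdh17, the liver-intestine cadherin (ENSMUSG00000028217, chromosome 4, 11758147 to 11817895), had 117, 130 and 119 FPKM in untreated cells. In Rspo1-positive cells it had 64.8, 52.8 and 66.3, all below the untreated libraries. It fell by 1.01 on the log2 scale (SE 0.16, edgeR adjusted p = 0.00163). Cdh6, a classical cadherin first known from kidney, had 25, 25.2 and 13.8 FPKM without Rspo1 and 15.8, 13.7 and 8.68 in Rspo1-positive cells. The groups overlap, because passage 10 was low in both, yet the Rspo1-positive library was the lower at each of the 3 passages. Its log2 fold change was -0.73 (SE 0.13, edgeR adjusted p = 0.00298), and without the passage block the adjusted p was 0.279.

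Occludin (Ocln), a tight junction membrane protein, had 33.1, 35.6 and 31.0 FPKM in untreated and 25.4, 18.6 and 20.5 in Rspo1-positive cells. It was lower in every Rspo1-positive library than in any untreated one, by 0.64 on the log2 scale (-0.64, SE 0.13, edgeR adjusted p = 0.00653), and without the Rspo1-positive library of passage 6 the adjusted p was 0.0680. Cldn3, a barrier-forming claudin, had 301, 376 and 309 FPKM in untreated and 198, 198 and 235 in Rspo1-positive cells. Again the groups did not overlap. Its log2 fold change was -0.66 (SE 0.16, edgeR adjusted p = 0.0186), but the call was lost when any Rspo1-positive library, or the untreated library of passage 5, was left out, with adjusted p-values up to 0.127.

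Cldn8, a claudin known from kidney and colon epithelium, had 11.9, 33.0 and 13.4 FPKM in untreated and 8.46, 10.3 and 9.32 in Rspo1-positive cells. One untreated library, that of passage 6, stood far above the others. The log2 fold change was -0.92 (SE 0.22, edgeR adjusted p = 0.0191), and it lost its call without the Rspo1-positive library of passage 5 or that of passage 6. Cldn23 had 7.26, 5.28 and 8.51 FPKM in untreated and 5.36, 2.35 and 4.07 in Rspo1-positive cells, lower at each passage with some overlap between groups. Its log2 fold change was -0.88 (SE 0.17, edgeR adjusted p = 0.00615), and it lost its call without the Rspo1-positive library of passage 6 or of passage 10. Calls for Cdh6, Cldn23, Cldn3 and Cldn8 were lost without the passage block, when 3 of 36 genes passed. With the offset for GC content and length described further on, 13 of 36 genes passed, beside 17.4% of all genes: the same 7 and Pkp3, Cdh13, Tjp3, Dsg2, F11r and Dsc2, all lower.

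Further genes lay near the threshold, in both directions. Jam2, a junctional adhesion molecule, had 2.38, 1.15 and 1.85 FPKM in untreated and 2.75, 1.83 and 2.80 in Rspo1-positive cells, higher at each passage with overlap between groups (log2 fold change 0.48, SE 0.15, edgeR adjusted p = 0.0612). Cdh13, a cadherin described further on, had -0.52 (SE 0.17, edgeR adjusted p = 0.0628), also with overlap. Pkp3, a plakophilin, had 42.6, 39.4 and 43.4 FPKM in untreated and 31.4, 33.1 and 34.1 in Rspo1-positive cells. The groups did not overlap, but its log2 fold change of -0.35 (SE 0.11) had an edgeR adjusted p of 0.0559. Tjp3, which encodes ZO-3, had 58.7, 69.2 and 75.0 against 49.6, 55.8 and 49.95 FPKM, again without overlap (-0.38, SE 0.12, edgeR adjusted p = 0.0642). The desmosomal cadherins Dsg2 (-0.40, SE 0.13) and Dsc2 (-0.31, SE 0.14) and the junctional adhesion molecule F11r (-0.33, SE 0.12) had edgeR adjusted p-values of 0.0724, 0.183 and 0.0999.

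Among the 6 genes of the set with a mean of at least 100 FPKM, Cldn3 passed and the others did not. Cdh1, which encodes E-cadherin, had 347, 428 and 316 FPKM in untreated and 305, 294 and 269 in Rspo1-positive cells (log2 fold change -0.32, SE 0.15, edgeR adjusted p = 0.211). Cldn2, the claudin of a cation and water pore, had 551, 744 and 451 against 487, 474 and 469 FPKM (log2 fold change -0.26, SE 0.17, edgeR adjusted p = 0.377). Cldn4, which tightens the barrier, had 145, 117 and 116 in untreated and 144, 119 and 112 in Rspo1-positive cells. The Cldn4 log2 fold change was -0.02 (SE 0.12), the closest to 0 of the 4 abundant claudins.

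Summed over members, claudin FPKM was 1272 ± 208 (SD, n = 3) in untreated, 1409 ± 36.3 in Rspo1-negative and 1011 ± 10.8 in Rspo1-positive cells. Cldn2 made up 45.3%, 40.0% and 47.1% of the claudin sum on average, and Cldn3 26.0%, 27.5% and 20.8%. The cadherin sum was 554 ± 79.6, 440 ± 10.6 and 399 ± 24.4 FPKM in the same order, with Cdh1 at 65.5%, 71.6% and 72.6% of it. The other tight junction genes summed to 394 ± 25.2, 294 ± 9.50 and 323 ± 11.1, and the desmosome genes to 211 ± 5.96, 168 ± 12.1 and 177 ± 3.67 FPKM. The lowest untreated library exceeded the highest Rspo1-positive one for all 4 sums, and 11.8% of all single genes tested were likewise lower without overlap. Cldn2 and Cdh1, the largest parts of the claudin and cadherin sums, did not pass in this comparison. These sums carry no test.

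**Figure D2:**
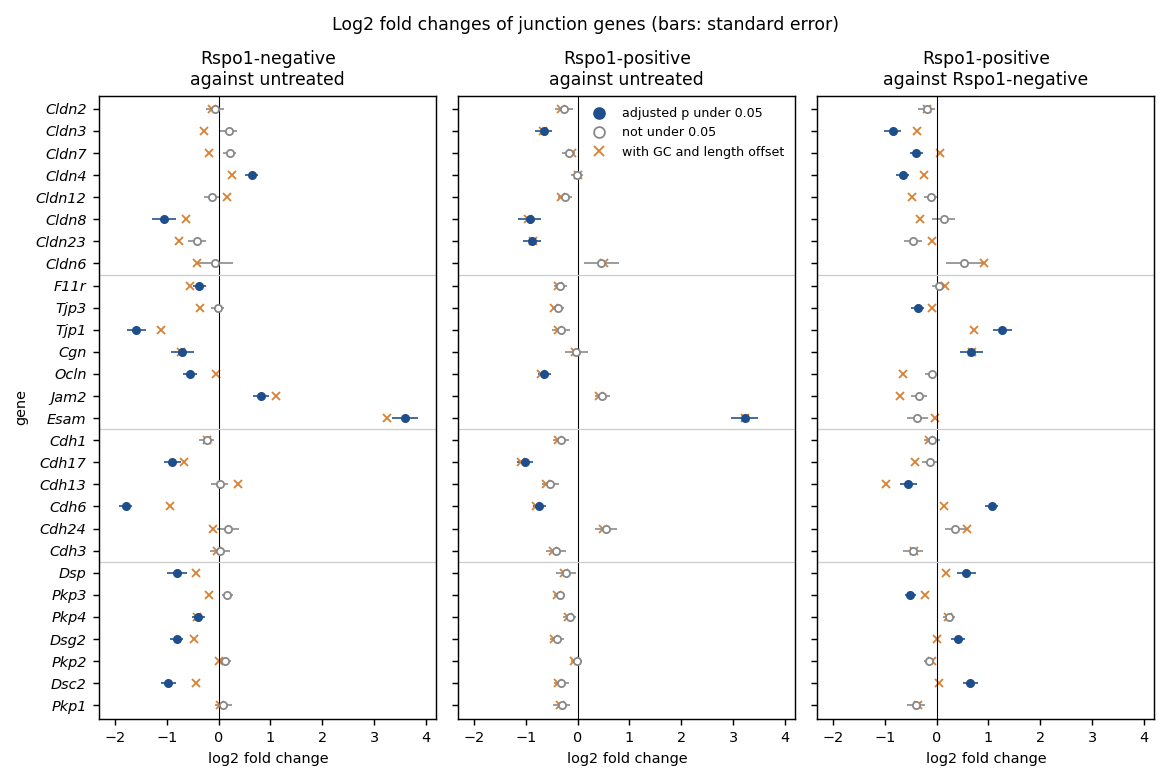
Log2 fold changes (x axis) of 28 junction genes in 3 group comparisons, with standard errors as bars; filled points have an edgeR adjusted p under 0.05, and crosses give the fold change after the offset for GC content and transcript length. Esam stands at 3.59 and 3.22 in the comparisons with untreated cells, and the crosses leave the points most in the comparisons that involve Rspo1-negative cells.

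Rspo1-negative cells differed from untreated cells in 14 of the 36 genes, 3 higher (Esam, Jam2 and Cldn4) and 11 lower. That is 38.9%, where 35.5% of all genes passed, 15.5% as higher and 20% as lower. Values did not overlap for 14 of 36 genes, and for 36.3% of all genes. The share of junction genes was thus near that of all genes. Lower genes were 4 of 9 other tight junction genes (Tjp1, Cgn, Ocln and F11r), 4 of 7 desmosome genes (Dsc2, Dsg2, Dsp and Pkp4), 2 of 10 cadherins (Cdh6 and Cdh17) and 1 of 10 claudins (Cldn8).

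Fold changes in the comparisons with Rspo1-negative cells followed GC content across all genes. The rank correlation of log2 fold change with the GC content of the longest transcript was 0.499 over 17001 genes and 0.572 over the 36 junction genes when Rspo1-negative cells were set against untreated ones. Between the 2 gates it was -0.506 and -0.475, and for Rspo1-positive against untreated cells -0.0131 and 0.125. These are descriptions across genes of shared libraries. Of 17 junction genes under 50% GC, 1 was higher and 7 were lower in Rspo1-negative than in untreated cells, with a median of -0.55. Of 19 genes of at least 50% GC, 2 were higher and 4 lower, with a median of 0.03. The same fit with an offset for GC content and length, which takes out the trend over all genes, called 14 junction genes again, 12 of them the same genes in the same direction, where 22.5% of all genes passed, and the correlation over junction genes was then 0.0458. Values under the offset are given beside each junction gene called without it whose call it ends or whose value it moves by over 1.5 times.

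**Figure D3:**
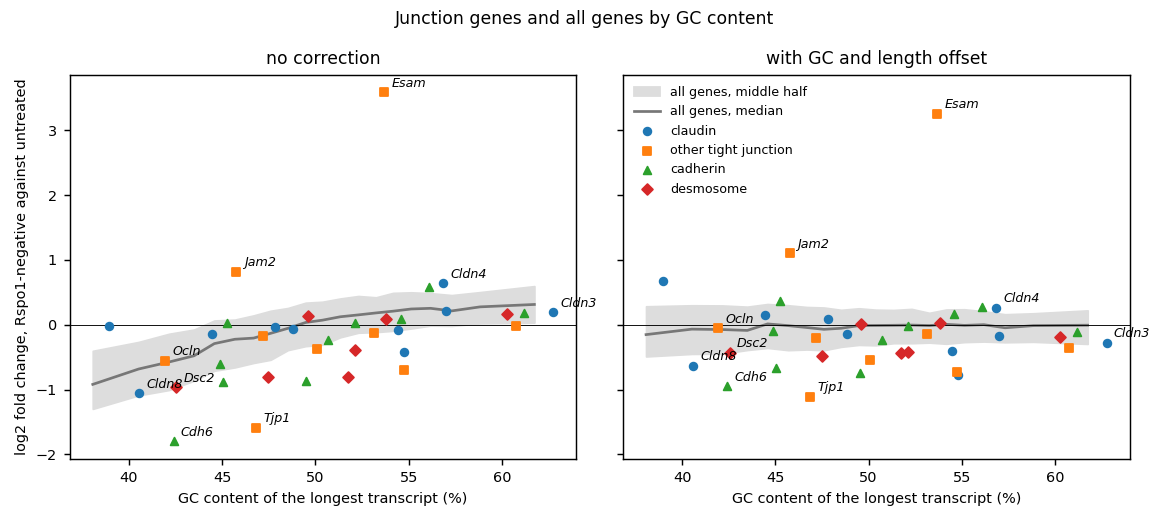
Log2 fold change between Rspo1-negative and untreated cells (y axis) against the GC content of the longest transcript (x axis) for the 36 tested junction genes, over the median and middle 50% of all genes in 20 bins of GC, without (left) and with (right) the GC and length offset. Tjp1, Cdh6 and Cldn8 stay below 0 and Esam and Jam2 above 0 in both panels, while Ocln moves from -0.55 to -0.05.

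Tjp1, which encodes the scaffold ZO-1 (ENSMUSG00000030516, chromosome 7, 65296165 to 65527781), had 73.5, 67.8 and 90.2 FPKM in untreated cells. Rspo1-negative cells had 26.6, 31.5 and 20.9 and Rspo1-positive cells 67.7, 55.5 and 62.6. The 3 Rspo1-negative libraries lay below the other 6. The log2 fold change against untreated cells was -1.58 (SE 0.19, edgeR adjusted p = 0.000245), and -1.11 (adjusted p = 0.000832) with the offset. Tjp3, which encodes the related scaffold ZO-3, had 62.9, 65.9 and 76.5 FPKM in Rspo1-negative cells and did not pass (-0.02, SE 0.12, edgeR adjusted p = 0.932). It did pass, as lower, with the offset (-0.36, edgeR adjusted p = 0.0385). Cingulin (Cgn), which binds the scaffolds, had 37.7, 23 and 46.4 FPKM in untreated and 19.3, 26.6 and 20.4 in Rspo1-negative cells. It was lower at passages 5 and 10 and higher at passage 6, so its log2 fold change of -0.70 (SE 0.22, edgeR adjusted p = 0.0318) did not hold at every passage. Its call was lost without either library of passage 5 or of passage 10.

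Among membrane proteins of the tight junction, Esam had 3.80, 3.57 and 4.18 FPKM in Rspo1-negative cells, above all untreated and all Rspo1-positive libraries. Its log2 fold change against untreated cells was 3.59 (SE 0.25, edgeR adjusted p = 3.58e-05), a 12.1-fold difference. Egfl7 was also highest here, at 13.7, 11.2 and 13.7 FPKM, while Pecam1 had at most 0.0530 FPKM and Tek at most 0.0261 in any of the 9 libraries. The endothelial sum in Rspo1-negative cells ran from 11.3 to 13.9 FPKM. Of the 2 endothelial markers tested, 1 was called higher than in untreated cells, with and without the offset. The other was lower and was not called. Jam2, another junctional adhesion molecule, had 2.38, 1.15 and 1.85 FPKM in untreated and 3.75, 2.26 and 3.63 in Rspo1-negative cells. It was higher at each passage although the groups overlapped (0.82, SE 0.15, edgeR adjusted p = 0.00221), and without the passage block the adjusted p was 0.0781. F11r, which encodes JAM-A, had 135, 144 and 141 against 108, 114 and 111 FPKM without overlap (-0.37, SE 0.12, edgeR adjusted p = 0.0328). Ocln had 25.8, 21.4 and 22.8 FPKM in Rspo1-negative cells, below every untreated library (-0.55, SE 0.13, edgeR adjusted p = 0.00709). With the offset its log2 fold change was -0.05 (edgeR adjusted p = 0.778).

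The claudins did not move as 1 block. Cldn4 had 215, 185 and 200 FPKM in Rspo1-negative cells, above all 6 other libraries (0.64 against untreated, SE 0.12, edgeR adjusted p = 0.00265), and its value with the offset was 0.26 (edgeR adjusted p = 0.0921). Its neighbour Cldn3 had 404, 320 and 440 FPKM, higher than the untreated library at passages 5 and 10 and lower at passage 6 (0.19, SE 0.16, edgeR adjusted p = 0.366). With the offset the Cldn3 sign turned, at -0.27 (edgeR adjusted p = 0.212). Cldn7, with 242, 208 and 236 against 189, 204 and 182 FPKM, did not pass either (0.22, SE 0.13, edgeR adjusted p = 0.199), and its sign turned as well, at -0.18 with the offset (edgeR adjusted p = 0.229). Cldn8 had 8.88, 11.2 and 6.74 FPKM, all below the untreated libraries (-1.05, SE 0.22, edgeR adjusted p = 0.00476, and -0.63 with the offset, adjusted p = 0.0290). Cldn23 passed, as lower, with the offset (-0.77, edgeR adjusted p = 0.00933) and had -0.42 (edgeR adjusted p = 0.0761) without it.

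Of the cadherins, Cdh6 differed most, with 7.85, 8.11 and 3.47 FPKM in Rspo1-negative cells and no overlap with untreated cells. Its log2 fold change was -1.79 (SE 0.13, edgeR adjusted p = 4.63e-05), and -0.94 (adjusted p = 0.000285) with the offset. Cdh17 had 82.6, 50.5 and 73.7 FPKM, also below all untreated libraries (-0.89, SE 0.16, edgeR adjusted p = 0.00203). Cdh1 had 292, 345 and 311 FPKM and did not pass (-0.23, SE 0.15, edgeR adjusted p = 0.259).

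In the desmosome, the plaque protein desmoplakin (Dsp) had 63.9, 51.6 and 63.7 FPKM in untreated and 27.4, 45.2 and 33.5 in Rspo1-negative cells, without overlap (-0.80, SE 0.19, edgeR adjusted p = 0.00867). With the offset the Dsp value was -0.44 (edgeR adjusted p = 0.0301). Its call was lost without the Rspo1-negative library of passage 5 or 10, or the untreated library of passage 5. Dsg2 (desmoglein 2) had 27.5, 35.8 and 29.2 FPKM in untreated and 15.1, 20.8 and 18.3 in Rspo1-negative cells (-0.81, SE 0.13, edgeR adjusted p = 0.00110, and -0.48, adjusted p = 0.0102, with the offset). Its partner Dsc2 (desmocollin 2) had 11.5, 16.2 and 11.0 against 6.23, 7.73 and 6.22 FPKM (-0.97, SE 0.14, edgeR adjusted p = 0.000609, and -0.43, adjusted p = 0.0266, with the offset). Neither overlapped between groups. Pkp4 had 38.1, 38.1 and 37.0 against 25.8, 32.4 and 30.7 FPKM, likewise without overlap (-0.39, SE 0.12, edgeR adjusted p = 0.0301), but it lost its call without the passage block. Calls for Cgn, F11r and Pkp4 were also lost in a fit of the 6 libraries alone and with upper-quartile scaling. F11r lost its call without any 1 of the 6 libraries other than the untreated one of passage 6, and Pkp4 without any 1 of the libraries of passages 5 and 10. Exons of Dsp, Dsg2, Cldn3 and Tjp3 overlap those of an opposite-strand gene over 5.17%, 3.99%, 3.18% and 1.08% of their length, and whether counting used strand is not given in the sources used here.

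**Figure D4:**
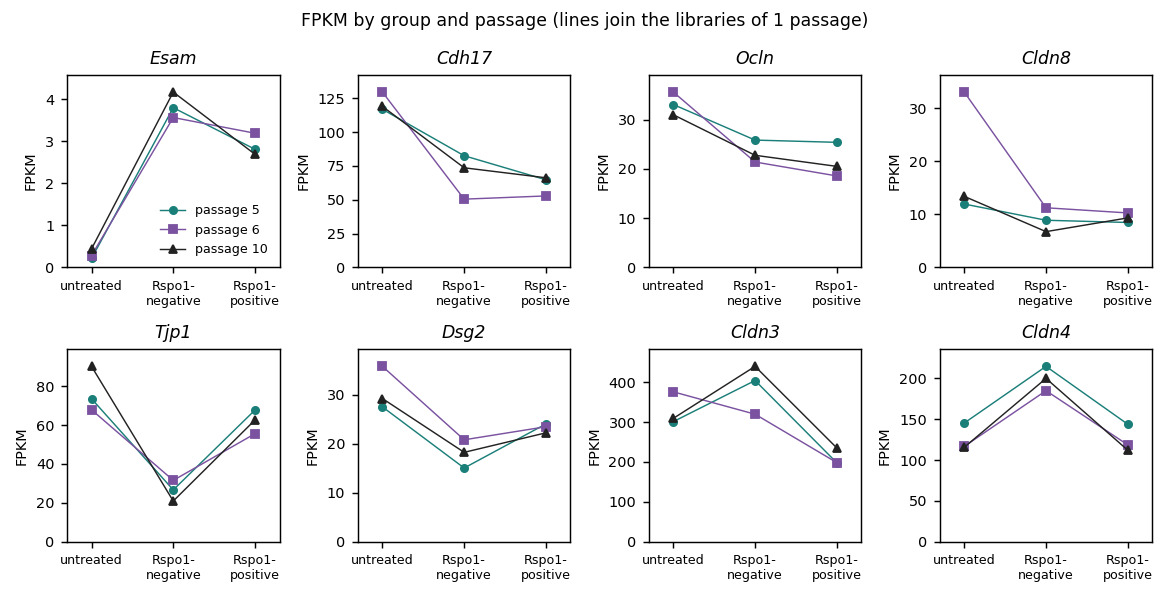
FPKM (y axis) of 8 junction genes in the 3 groups (x axis), with lines joining the 3 libraries of each passage. Esam, Cdh17, Ocln and Cldn8 lie on the same side of untreated cells in both Rspo1 groups, whereas Tjp1 is lowest and Cldn4 highest in the Rspo1-negative group at every passage.

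The 2 Rspo1 groups, both treated and differing in the tdTomato gate, were compared directly. Rspo1-positive cells had more Tjp1, Cdh6, Dsc2, Cgn, Dsp and Dsg2 RNA than Rspo1-negative cells, and less Cldn3, Cldn4, Cldn7, Cdh13, Pkp3 and Tjp3. With Cldn1 (higher) and Cdh4 (lower), both under 1 FPKM on average, that made 7 higher and 7 lower among 36, or 38.9%, the same as the 38.9% of all genes that passed (21.5% higher and 17.4% lower). Values did not overlap for 17 of 36 genes, and for 45.2% of all genes. By this measure the junction genes did not stand out from all genes. Without the passage block 6 of the 14 passed: Tjp1, Cldn3, Cldn4, Cldn7, Dsc2 and Pkp3. Cgn, Cldn7, Cdh13, Dsp and Tjp3 each lost their call without any 1 of the 6 libraries other than the Rspo1-negative one of passage 6, and Dsg2 without any passage 5 or passage 10 library. This comparison shares its libraries with the other 2, so its values are not independent of theirs.

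The difference in Tjp1 was the largest among the genes higher in Rspo1-positive cells (1.26, SE 0.18, edgeR adjusted p = 0.000688), a 2.40-fold difference, and it was 0.72 (adjusted p = 0.00574) with the offset. Cgn had 36.3, 34.3 and 33.4 FPKM in Rspo1-positive cells, above all Rspo1-negative libraries (0.67, SE 0.22, edgeR adjusted p = 0.0327, with 0.69 under the offset). Cdh6 was 2.08-fold higher (1.06, SE 0.13, edgeR adjusted p = 0.000342), but its value with the offset was 0.14 (edgeR adjusted p = 0.292). The 3 desmosome genes lost their calls with the offset as well. Dsp, at 53.4, 48.6 and 52 FPKM in Rspo1-positive cells, went from 0.58 (SE 0.19, edgeR adjusted p = 0.0340) to 0.17. Dsg2, at 24.1, 23.5 and 22.2 FPKM, went from 0.41 (SE 0.13, edgeR adjusted p = 0.0287) to 0.02. Dsc2, at 10.7, 9.79 and 10.2 FPKM, went from 0.65 (SE 0.14, edgeR adjusted p = 0.00465) to 0.05.

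Among genes lower in Rspo1-positive cells, Cdh13, a cadherin held at the membrane by a lipid anchor and lacking the usual inner tail, kept its call with the offset. It had 43.8, 52.2 and 28.8 FPKM in untreated, 43.4, 42.4 and 41.5 in Rspo1-negative and 31.9, 27.2 and 26.3 in Rspo1-positive cells. All Rspo1-positive libraries lay below all Rspo1-negative ones (-0.55, SE 0.17, edgeR adjusted p = 0.0231, and -0.97, adjusted p = 0.00289, with the offset). Cldn3 (-0.85, SE 0.16, edgeR adjusted p = 0.00233) and Cldn4 (-0.65, SE 0.12, edgeR adjusted p = 0.00229) did not overlap between the 2 gates. With the offset they had -0.38 (edgeR adjusted p = 0.0825) and -0.25 (edgeR adjusted p = 0.101). Cldn7, at 160, 180 and 171 FPKM in Rspo1-positive cells, had -0.39 (SE 0.13, edgeR adjusted p = 0.0304), and with the offset its sign turned, at 0.07 (edgeR adjusted p = 0.642). Pkp3, with 49.6, 45.5 and 48.8 FPKM in Rspo1-negative cells (-0.51, SE 0.11, edgeR adjusted p = 0.00412), and Tjp3 (-0.36, SE 0.12, edgeR adjusted p = 0.0344) also lost their calls with the offset, at -0.22 and -0.09. With the offset 8 genes passed, beside 24.2% of all genes, of which 4 were called without it (Tjp1, Cdh13, Cgn and Cdh4) and the others were Ocln, Jam2, Cldn12 and Cdh24. Ocln passed with the offset, at -0.65 (edgeR adjusted p = 0.00383), and had -0.09 without it.

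Cdh4 and Cldn1, named here after their values were seen, had few counts: 6 to 74 for Cdh4 and 34 to 104 for Cldn1 in any library. Their log2 fold changes were -1.05 (SE 0.37, edgeR adjusted p = 0.0410) and 0.74 (SE 0.27, edgeR adjusted p = 0.0460). The Cldn1 value with the offset was 0.03. Of 14 alternative fits, 12 lost the Cldn1 call and 8 the Cdh4 call, DESeq2 and 5 of the 6 fits that left out 1 library among them for both genes.

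Other genes of the junctions were taken from 5 lists of 69 genes (tight junction plaque and tricellular proteins, catenins and nectins, plakins and other desmosome genes, polarity proteins, and regulators of epithelial genes), of which 59 were tested. In Rspo1-positive against untreated cells 1 was higher and 4 were lower, in Rspo1-negative against untreated cells 2 and 15, and between the gates 14 and 11. These were 8.47%, 28.8% and 42.4% of the 59, where 13.2%, 35.5% and 38.9% of all genes passed, so that the first 2 shares lay below those of all genes and the third near it. The medians were -0.12, -0.16 and 0.12 on the log2 scale, beside -0.00, -0.01 and 0.03 for all genes. Perp, a membrane protein of desmosomes, was lower in Rspo1-positive than in untreated cells (-0.71, SE 0.14, edgeR adjusted p = 0.00659), as was the plakin Ppl (-0.81, SE 0.23, edgeR adjusted p = 0.0396). The polarity genes Lin7c (-1.53, SE 0.16, edgeR adjusted p = 0.000163) and Mpp5 (-1.23, SE 0.15, edgeR adjusted p = 0.000297), which encodes a partner of the Crumbs complex, were lower in Rspo1-negative than in untreated cells. With the offset they had -0.73 and -0.41, both still called.

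Rises in the same comparison were led by Pard6a (0.88, SE 0.18, edgeR adjusted p = 0.00420), a polarity protein whose call ended with the offset (0.49, adjusted p = 0.0593), and Sympk (0.44, SE 0.12, edgeR adjusted p = 0.0134). Between the gates, Lin7c (1.28, SE 0.16, edgeR adjusted p = 0.000345) and the scaffold Magi3 (1.0, SE 0.14, edgeR adjusted p = 0.000512) were higher in Rspo1-positive cells, at 0.50 and 0.55 with the offset. Pard6a (-0.78, SE 0.18, edgeR adjusted p = 0.00709) and Crb3 (-0.62, SE 0.12, edgeR adjusted p = 0.00227) were lower, at -0.31 and -0.15 with the offset, which ended both calls. The repressors of epithelial junction genes Snai1, Snai2, Zeb1, Zeb2 and Twist1 had at most 0.185 FPKM in any library.

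Other features moved with the groups. The summed FPKM of 8 proliferation genes was 9.90 to 28.6 in untreated, 29.9 to 47.5 in Rspo1-negative and 91.4 to 172 in Rspo1-positive cells. The sum of 8 genes of the response to dissociation was 226 to 387, 253 to 372 and 316 to 684 in the same order, and that of 10 hepatocyte genes, mostly Ttr, was 177 to 401, 294 to 553 and 186 to 288. Of the 8 biliary markers, 3 were higher (Sox9, Cftr and Spp1) and 2 lower (Krt19 and Tspan8) by edgeR's test when Rspo1-positive cells were set against untreated ones. Krt19 had 1690 to 2164 FPKM in untreated, 1311 to 2118 in Rspo1-negative and 842 to 1017 in Rspo1-positive cells. The sum of the 5 measured immune markers was 15.9 to 27.4, 15.3 to 27.6 and 13.5 to 17.7 FPKM in the same order. Of the 2 with enough counts, edgeR's test called 1 lower in Rspo1-positive cells against each of the other groups. With the offset, neither was called between the gates. The part of any of these features in the junction gene values was not tested.

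Passage was compared over the 3 groups, with 1 library of each group per passage. Same-passage libraries of the 1 organoid line deviated together, so these 3 are not independent repeats of a passage. The p-values of this comparison do not measure how far repeated lines would differ at 1 passage. Between passages 10 and 5, 4 of 36 junction genes passed (11.1%, against 9.07% of all genes, 4.57% higher and 4.5% lower), 3 lower (Cldn6, Cdh6 and Cdh2) and 1 higher (Cdh16). Cldn6, a claudin known from embryonic epithelium, had 1.25, 1.39 and 1.61 FPKM at passage 5, in the order untreated, Rspo1-negative and Rspo1-positive. It had 1.52, 1.04 and 2.74 at passage 6 and 0.157, 0.234 and 0.117 at passage 10. The 3 libraries of passage 10 were below the other 6, with 7 to 9 counts each, and the log2 fold change was -3.07 (SE 0.40, edgeR adjusted p = 0.00142), or 8.42-fold lower. Cdh6 was lower at passage 10 in each group (-0.93, SE 0.13, edgeR adjusted p = 0.00224).

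Cdh2, which encodes N-cadherin, had 0.652, 0.284 and 0.569 FPKM at passage 5, 0.258, 0.136 and 0.125 at passage 6, and 0.105, 0.104 and 0.118 at passage 10. It was lower at passage 10 (-2.13, SE 0.34, edgeR adjusted p = 0.00443) and at passage 6 (-1.51, SE 0.33, edgeR adjusted p = 0.0378) than at passage 5. Cdh16, the kidney-specific cadherin, named after its values were seen, rose from 0.197, 0.376 and 0.376 FPKM at passage 5 to 0.619, 1.05 and 0.734 at passage 10 (1.37, SE 0.27, edgeR adjusted p = 0.0120). Its call was lost without the passage 5 library of untreated or of Rspo1-negative cells, or the passage 10 library of Rspo1-negative cells. Between passages 6 and 5, 4 genes passed (11.1%, against 2.49% of all genes, 1.16% higher and 1.33% lower): Cdh2, Jam2 (-0.78, SE 0.15, edgeR adjusted p = 0.0242), Cldn23 (-0.76, SE 0.17, edgeR adjusted p = 0.0455) and Cdh3, named after its values were seen (-0.85, SE 0.19, edgeR adjusted p = 0.0457). All 4 were lower at passage 6, and all 4 calls were lost when any passage 5 library was left out, and also without the passage 6 library of either Rspo1 group or the passage 10 library of Rspo1-positive cells.

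**Figure D5:**
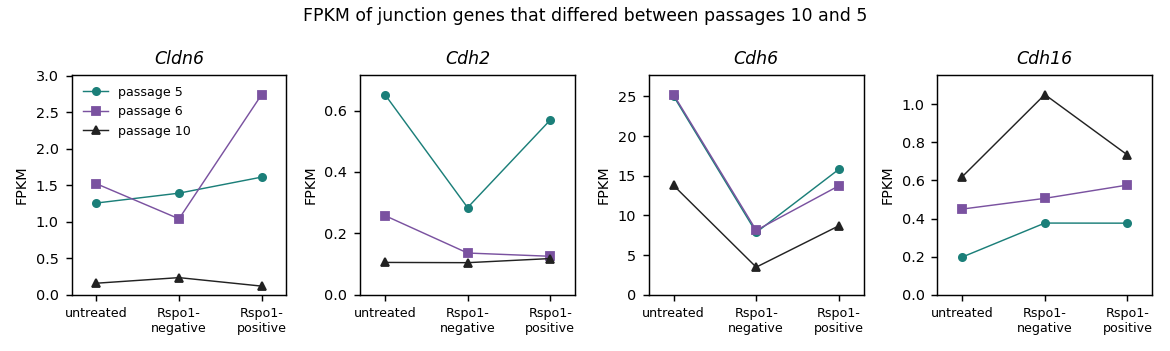
FPKM (y axis) of the 4 junction genes that differed between passages 10 and 5, in the 3 groups (x axis), with 1 line per passage. Cldn6 and Cdh6 are lowest and Cdh16 is highest at passage 10 in every group, and Cdh2 is highest at passage 5 in every group.

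The authors' deposited tables of the 3 comparisons held 31 of the 60 genes each. In the authors' deposited table for Rspo1-positive against untreated cells, 1 was higher and 9 were lower at an adjusted p under 0.05, including all 7 called here in the same direction. The genes called in that deposited table of the authors were 32.3% of the 31, and 14.7% of all its genes that had an adjusted p. In the authors' deposited tables for Rspo1-negative against untreated cells and for the 2 gates, 3 and 6 were higher and 9 and 9 lower, and each included 12 of the 14 genes called here. The genes called in these 2 of the authors' deposited tables were 38.7% and 48.4% of the 31, and 29.3% and 45.8% of all genes that had an adjusted p.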

How the data were processed

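RNA of 9 sorted-cell samples was read as single-end 75 bp reads from 100 ng of total RNA, per the labels' protocols. Per the submitters' processing notes the tools included Trimmomatic 0.35, FastQC 0.11.2, STAR 2.5.1b, featureCounts and DESeq2, with build GRCm38; annotation and strand setting are not given in the sources used here. The deposited files hold raw counts and FPKM values for 32137 genes, per the file headers. The deposited FPKM followed the longest transcript's length (within 1% for 98.2% of 16626 genes) and a size factor rather than the total count. The authors' deposited tables give log2 fold changes and adjusted p-values.

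Tests used edgeR 4.0.16 and limma 3.58.1 under R 4.3.3: filterByExpr (minimum count 10, total 15; 17011 genes), TMM, and 1 quasi-likelihood fit of all 9 libraries with group and passage, adjusted by Benjamini-Hochberg over all genes at 0.05. SE is the log2 fold change over the square root of F. The offset is a spline (5 degrees of freedom) of GC content and log length per library. Same-passage libraries of the 1 organoid line deviated together (correlations 0.123 to 0.573 over 9 pairs, and -0.476 to 0.0826 over 18 other pairs), and the labels give the shared passage, so passage pairs them. DESeq2 1.42.0 and other scalings and filters were alternatives. The fits were tested on simulated data. Tables and figures used Python 3.11.15.

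Genes were chosen for naming if called in a group comparison with a mean FPKM of at least 1, if among the 3 highest of their class, or if among the 3 smallest adjusted p-values of a passage comparison. Members and lists were chosen with earlier results of these data known. One tested gene, kept in all counts and sums, is not reported here by name or drawn in the plots of levels and fold changes.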

Additional observations from a re-analysis of the deposited data

How the results depend on the processing

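Junction genes called in Rspo1-positive against untreated cells numbered 7, with 3 without the replicate block, 12 with DESeq2 and 13 with the GC and length offset; leaving out 1 library gave 3 to 8. Between the gates the 14 became 6 without the block, 8 with the offset, 3 with the offset and no block, 17 without the filter on low counts and 19 in a fit of the 6 libraries alone (6 to 14 with 1 library left out). For Rspo1-negative against untreated cells the 14 became 7 with the offset and no block (10 to 15 with 1 library left out). Passage 10 against 5 gave 4 (3 to 5), and passage 6 against 5 gave 4, 7 without the filter on low counts and 0 to 6 with 1 library left out. Of 43 called gene results, 10 kept their call in every alternative: Esam and Cdh17 against untreated cells in both Rspo1 groups, Tjp1 in both comparisons with Rspo1-negative cells, Dsg2 in Rspo1-negative against untreated cells, and Cldn6, Cdh6 and Cdh2 at passage 10. Over 602 refits of the 43, 447 kept direction and call, 153 lost the call and 2 reversed: Cldn7 between the gates, at 0.0685 with the offset and block and 0.0701 with the offset and no block. The cause was not tested. The offset without the block was chosen after seeing the data. Counts of 13 to 29 in untreated cells limit the precision of the Esam fold.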
